A study of Homo sapiens with 16 samples.

Results

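The DNA regions occupied by BCL11A and by ZBTB7A in HUDEP-2, an immortalised human cell line of the erythroid lineage, were set against each other. The regions were those of the deposited BCL11A list and of the deposited ZBTB7A list from cells with a wild-type (WT) γ-globin promoter, on the standard chromosomes apart from chromosome 11, with identical intervals counted once. This gave 12245 BCL11A and 34582 ZBTB7A regions, together 46827 of the 85461 regions in the 4 lists of the series. A region of one factor was called shared when a region of the other covered at least 1 bp of it. Chromosome 11, which carries the β-globin cluster, was left out because the WT list uses a modified version of it, so 666 BCL11A and 1853 ZBTB7A regions were not compared.

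Chromatin immunoprecipitation with sequencing (ChIP-seq), which recovers the DNA bound to a protein, was carried out in 16 libraries of the series, 8 of them ChIP and 8 of them control. For BCL11A, HUDEP-2 cells carried the fusion BCL11A-ER-V5, whose estrogen receptor part lets 4-hydroxytamoxifen switch it on. The cells were induced at 1e-07 M for 24 h, and the V5 tag was precipitated (2 ChIP and 2 control libraries). For ZBTB7A, HUDEP-2 (ΔGγ) WT cells were used, which lack the Gγ-globin gene HBG2, and the ZBTB7A protein itself was precipitated with antibodies from Santa Cruz and eBioscience (1 ChIP and 1 control library). Both cultures grew with SCF, EPO, dexamethasone and doxycycline. The controls are titled input, while their antibody label names an IgG. Whether the BCL11A and the ΔGγ cells were single clones is not stated in the labels. The fusion is an added, tagged protein, so the cells, the antibody, the number of libraries and the way regions were called differ together between the factors, and their effects on the comparison cannot be told apart. The BCL11A list was reduced from 2 libraries by the irreproducible discovery rate, and the ZBTB7A list was called in 1 library. No error between replicates can therefore be given. The ZBTB7A lists of 195C>G cells and of K562, an erythroleukaemia line, were used for comparison only. The 195C>G cells are ΔGγ cells with a changed γ-globin promoter (1 ChIP and 1 control library). K562 had 4 ChIP and 4 control libraries. Region lists hold no RNA, so erythroid identity could not be checked by expression. All shares carry exact Clopper-Pearson 95% intervals, which cover counting error only, because regions are not replicates and the read depth is unknown.

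BCL11A and ZBTB7A (also called LRF) are zinc-finger proteins that silence the fetal γ-globin genes in adult erythroid cells. BCL11A recognises the short sequence TGACCA, and ZBTB7A recognises GC-rich DNA. Both bring in corepressors, among them the NuRD complex, which remodels nucleosomes and removes acetyl groups from histones. Both proteins also occupy many promoters and enhancers far from the globin genes.

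The promoters of 7 genes show the kinds of place that the comparison sorted. LYL1, which encodes a helix-loop-helix factor of blood cells, ZNF787, which encodes a zinc-finger protein, and EPOR, the erythropoietin receptor gene, lay under regions of both factors. KLHDC8B, which encodes a kelch domain protein, FZD5, a Wnt receptor gene, and RILP, which encodes a lysosome transport adaptor, lay under BCL11A regions that no ZBTB7A region overlapped. PELP1, which encodes a nuclear receptor coregulator, lay under the strongest ZBTB7A promoter region, which no BCL11A region overlapped. Of the 10 strongest BCL11A promoter regions that no ZBTB7A region overlapped, 9 had a window, and FZD5 and RILP are the 2 with TGACCA. The windows shown were chosen after values and motif matches were seen. For each, the 250 bases before the RefSeq start (GRCh38.p14) are given 5′ to 3′ on the strand of the gene, in lower case, with matches on either strand to short motifs known for BCL11A, GATA1 and ETS factors and to the E box in capitals. The letters of each motif are spelled out with their frequency further on. A match is a run of letters and not a measured binding site. RefSeq starts can differ from those of the deposited annotation, which were used for the classes.
LYL1 (chr19:13102859-13103108, minus strand; 250 bases in the BCL11A and 250 in the ZBTB7A region; no match): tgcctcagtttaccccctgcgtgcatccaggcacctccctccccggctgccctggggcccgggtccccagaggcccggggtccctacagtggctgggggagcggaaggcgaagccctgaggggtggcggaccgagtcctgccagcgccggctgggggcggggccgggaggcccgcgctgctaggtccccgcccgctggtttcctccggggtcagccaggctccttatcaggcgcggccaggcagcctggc
ZNF787 (chr19:56121296-56121545, minus strand; 250 and 239 bases; overlapping ETS matches on both strands): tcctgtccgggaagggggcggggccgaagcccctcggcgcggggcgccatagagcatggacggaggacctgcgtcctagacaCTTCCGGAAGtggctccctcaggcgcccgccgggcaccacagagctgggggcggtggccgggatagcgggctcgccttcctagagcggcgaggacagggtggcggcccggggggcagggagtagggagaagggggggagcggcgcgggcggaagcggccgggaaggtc
EPOR (chr19:11384315-11384564, minus strand; 222 and 207 bases; GATA1 match on the complement): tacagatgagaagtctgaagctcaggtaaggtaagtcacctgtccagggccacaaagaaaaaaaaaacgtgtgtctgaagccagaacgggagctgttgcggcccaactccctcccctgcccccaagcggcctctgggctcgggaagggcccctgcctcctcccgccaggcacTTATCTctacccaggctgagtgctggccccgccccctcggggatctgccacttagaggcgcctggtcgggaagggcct
KLHDC8B (chr3:49171348-49171597, plus strand; 250 bases in the BCL11A region; GATA1 match on the complement): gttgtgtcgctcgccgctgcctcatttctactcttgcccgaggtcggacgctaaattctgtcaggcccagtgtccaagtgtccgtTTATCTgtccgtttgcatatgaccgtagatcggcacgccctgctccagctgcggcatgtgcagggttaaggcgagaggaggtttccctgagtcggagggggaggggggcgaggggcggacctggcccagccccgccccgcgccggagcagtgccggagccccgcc
FZD5 (chr2:207769907-207770156, minus strand; 250 bases in the BCL11A region; TGACCA on the complement): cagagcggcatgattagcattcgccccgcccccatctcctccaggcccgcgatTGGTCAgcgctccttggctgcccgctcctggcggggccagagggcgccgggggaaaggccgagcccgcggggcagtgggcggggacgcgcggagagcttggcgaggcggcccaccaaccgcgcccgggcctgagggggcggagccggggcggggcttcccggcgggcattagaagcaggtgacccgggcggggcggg
RILP (chr17:1649867-1650116, minus strand; 250 bases in the BCL11A region; TGACCA as written): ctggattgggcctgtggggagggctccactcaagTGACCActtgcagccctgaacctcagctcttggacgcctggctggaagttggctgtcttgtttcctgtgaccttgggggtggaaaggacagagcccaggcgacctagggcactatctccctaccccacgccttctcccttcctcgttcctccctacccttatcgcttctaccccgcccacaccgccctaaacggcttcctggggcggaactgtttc
PELP1 (chr17:4704138-4704387, minus strand; 250 bases in the ZBTB7A region; E box as written): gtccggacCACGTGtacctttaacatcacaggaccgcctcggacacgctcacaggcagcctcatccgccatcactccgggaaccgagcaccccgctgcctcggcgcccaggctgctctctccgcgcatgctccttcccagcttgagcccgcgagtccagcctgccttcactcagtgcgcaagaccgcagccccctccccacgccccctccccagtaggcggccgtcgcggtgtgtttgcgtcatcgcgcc

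Most BCL11A regions coincided with ZBTB7A, whereas most ZBTB7A regions lay elsewhere. Of 12245 BCL11A regions 7044 were overlapped by ZBTB7A (57.5%, interval 56.6 to 58.4%), and of 34582 ZBTB7A regions 8644 were overlapped by BCL11A (25.0%, interval 24.5 to 25.5%). These shares are the background for every class and every strength that follows. The ZBTB7A list covered 18.6 Mb with regions of a median 644 bp, and the BCL11A list covered 3.99 Mb with regions of a median 370 bp, so a BCL11A region had more sequence to meet than a ZBTB7A region had. When the ZBTB7A list was reduced to its strongest 12245 regions, the number in the BCL11A list, 34.5% of BCL11A regions and 36.3% of ZBTB7A regions were shared. Lists of equal length make the shares of both directions nearly equal by construction.

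The shared places included genes of the red cell programme. The strongest BCL11A region of all lay inside ZFPM1, the gene of the GATA1 partner FOG1, on chromosome 16 from 88491496 to 88492245 (hg38), with a score of 2348. A ZBTB7A region of rank 623 overlapped it (signal 118). A further pair in ZFPM1 had ranks 83 for BCL11A and 14 for ZBTB7A. Of the 10 strongest BCL11A regions 9 were shared, and of the 100 strongest 74. The strength of the partner varied widely among them. The region at the DIP2A promoter, rank 2 for BCL11A, met a ZBTB7A region of rank 20338, and the region of UBE2O, a ubiquitin-conjugating enzyme gene, at rank 4 met one of rank 839.

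Among the 10 strongest ZBTB7A regions 7 were shared, and among the 100 strongest 65. The strongest of all, with a signal of 381, lay 97654 bp from the nearest protein-coding start, that of MYLIP, a ubiquitin ligase gene, and the nearest BCL11A region was 206406 bp away. A region inside LDB1, whose protein bridges enhancers and promoters with GATA1, had rank 8 for ZBTB7A and met a BCL11A region of rank 5334. A region 8670 bp from the PDZK1IP1 start, a neighbour of the erythroid factor gene TAL1, had rank 6 and met one of rank 1502.

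Promoters, gene bodies and distal sites were compared next. A promoter region had its midpoint (BCL11A) or summit (ZBTB7A) within 1 kb of a protein-coding start, a gene body region lay elsewhere inside a protein-coding transcript, and the rest were distal. BCL11A regions were shared in 64.4% of 5186 promoter regions (63.1 to 65.7%), 51.2% of 3780 gene body regions (49.6 to 52.8%) and 53.9% of 3279 distal regions (52.2 to 55.6%). ZBTB7A regions were shared in 33.4% of 12542 promoter regions (32.6 to 34.2%), 20.9% of 11180 gene body regions (20.1 to 21.6%) and 19.5% of 10860 distal regions (18.8 to 20.3%). Promoters thus had the highest share for both factors, with intervals clear of the other classes. The difference between promoter and distal regions was 10.5 percentage points for BCL11A (8.34 to 12.7) and 13.8 for ZBTB7A (12.7 to 15.0). With a reciprocal overlap of at least 50% the BCL11A difference turned to -0.605 points, and with the list of the 195C>G cells in place of WT it was 3.19 points. The class of a place was nearly always the same for both factors, in 98.8% of shared BCL11A regions with their best partner. The best partner is the strongest ZBTB7A region that overlaps.

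Stronger regions were shared more often. Each list was divided into 10 equal deciles by its own value, decile 1 being the strongest. For BCL11A the share was 71.4% in decile 1 (68.8 to 73.9%), 63.5% in decile 2, 58.5% in decile 5 and 48.6% in decile 10 (45.8 to 51.5%). For ZBTB7A it was 45.2% in decile 1 (43.5 to 46.9%), 36.0% in decile 2, 24.7% in decile 5 and 12.6% in decile 10 (11.5 to 13.8%). The ZBTB7A share was lower in each decile than in the one before it, and the BCL11A share was so in all but deciles 5 and 8. Widths moved with strength. BCL11A regions had a median of 337, 216 and 241 bp in deciles 1, 2 and 3 and 370 bp in the others, and ZBTB7A regions had 422 bp in decile 1 and 644 bp in the others. With all regions set to 400 bp around their midpoint or summit, the difference between deciles 1 and 10 was 23.6 points for BCL11A, against 22.8 points (18.95 to 26.6) with the deposited widths, and 34.3 points for ZBTB7A, against 32.6 (30.5 to 34.6). With reciprocal overlap, which the narrow regions of deciles 2 and 3 can seldom reach against 644 bp, the BCL11A share was 38.4% in decile 1, 9.80% in decile 2, 25.9% in decile 3, 42.5% in decile 5, 38.8% in decile 6, 38.3% in decile 8 and 33.2% in decile 10. The order of the BCL11A share with strength did not hold under that setting.

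**Figure D1:**
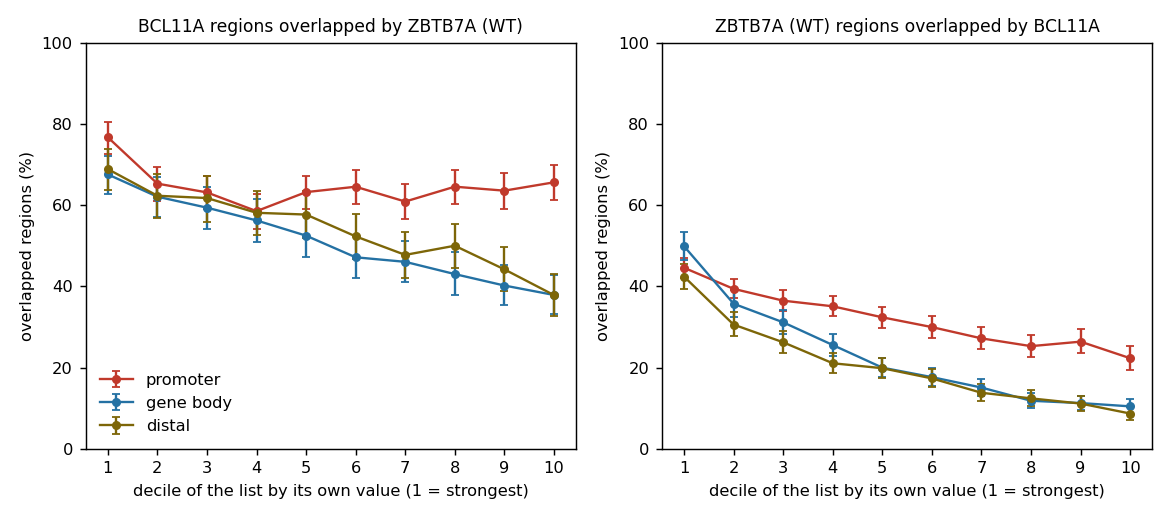
Share of BCL11A regions overlapped by ZBTB7A (left) and of ZBTB7A regions overlapped by BCL11A (right), in percent, by decile of the list's own value and by genomic class, with exact 95% intervals as bars. At BCL11A promoters the share lies between 58.5% and 65.6% from decile 4 to decile 10, while in gene bodies and at distal sites it goes from 67.6% and 68.9% in decile 1 to 37.9% in decile 10.

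The relation to strength differed between classes. At promoters the BCL11A share was 76.7% in decile 1 (72.6 to 80.5%), 58.5% in decile 4 and 65.6% in decile 10 (61.1 to 69.9%), so weak promoter regions were shared about as often as those of the middle of the list. In gene bodies it was 67.6% in decile 1 (62.8 to 72.1%), 52.5% in decile 5 and 37.9% in decile 10 (33.1 to 42.9%). At distal sites it was 68.9% (63.7 to 73.7%), 57.7% and 37.9% (32.8 to 43.1%) in the same deciles. When deciles were formed within each class, decile 1 exceeded decile 10 by 9.70 points at promoters (4.05 to 15.3), 29.6 points in gene bodies (22.5 to 36.4) and 31.3 points at distal sites (23.6 to 38.5). The promoter interval did not overlap the intervals of the other classes. In decile 10 the promoter and distal shares stood at 65.6% and 37.9%, and in decile 1 at 76.7% and 68.9%.

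For ZBTB7A the difference was also smallest at promoters, and it was larger there than for BCL11A. Within classes its share went from 45.3% in decile 1 to 23.5% in decile 10 at promoters (21.8 points, 18.1 to 25.5). It went from 46.4% to 9.75% in gene bodies (36.7 points, 33.2 to 40.1) and from 41.7% to 8.84% at distal sites (32.9 points, 29.4 to 36.3). The weakest ZBTB7A regions outside promoters were therefore the ones least often shared. The composition of the list moved with strength as well, since promoters made up 48.7% of ZBTB7A decile 1 and 23.9% of decile 10, and the within-class values do not depend on that change.

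The same relation appears in the values of shared and unshared regions. Shared BCL11A regions had a median score of 31.9 (quartiles 20.5 and 58.7) and unshared ones 26.5 (18.5 and 45.0). At promoters the medians were 30.2 and 29.4, in gene bodies 34.0 and 25.3, and at distal sites 33.6 and 24.9. Shared ZBTB7A regions had a median signal of 33.0 and unshared ones 23.8, with 33.7 and 27.9 at promoters, 31.9 and 21.8 in gene bodies and 32.6 and 22.8 at distal sites. The quartile ranges of shared and unshared regions overlapped in each of these comparisons, so strength alone did not separate them.

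Among shared regions the strengths of the factors were weakly related. Across the 7044 shared BCL11A regions, the Spearman correlation of their rank with the rank of their best ZBTB7A partner was 0.12, and it was 0.095 at promoters (n = 3341), 0.17 in gene bodies (n = 1935) and 0.12 at distal sites (n = 1768). These points share the genome position and the same lists, partners can recur, and regions are not independent, so the values are descriptions. A best partner from ZBTB7A decile 1 was found for 33.0% of shared BCL11A regions of decile 1 and for 18.8% of those of decile 10, against 23.6% of all shared regions. Taking the strongest of several overlapping ZBTB7A regions raises these shares by construction. Strong met strong in 289 regions, of which 109 were promoter, 93 gene body and 87 distal regions. The 875 shared BCL11A regions of decile 1, from which these come, comprised 359 promoter, 277 gene body and 239 distal regions. Promoters were thus not favoured among the 289. A BCL11A region of decile 1 met a best partner from ZBTB7A decile 10 in 25 cases, and one of decile 10 met a partner from ZBTB7A decile 1 in 112.

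**Figure D2:**
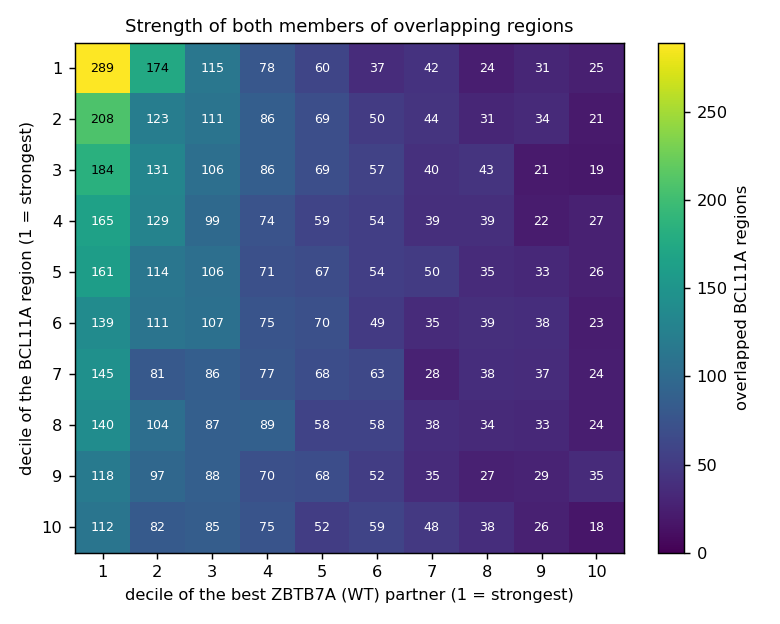
Number of shared BCL11A regions by their own decile (vertical axis) and the decile of their best ZBTB7A partner (horizontal axis), decile 1 being the strongest. The highest count, 289, is where both are in decile 1, and each row of BCL11A strength has its highest count at ZBTB7A decile 1, down to 112 of the 595 shared regions of BCL11A decile 10. The best partner is the strongest overlapping ZBTB7A region, a choice that favours ZBTB7A decile 1 by construction.

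The factors lay close together where they were shared. The median distance from the BCL11A midpoint to the nearest overlapping ZBTB7A summit was 85 bp (quartiles 39 and 174 bp), and 56.5% of shared BCL11A regions had a summit within 100 bp. The distance was shorter in gene bodies (68 bp) and at distal sites (73 bp) than at promoters (107 bp), and shorter in BCL11A decile 1 (65 bp) than in decile 10 (106 bp). The ZBTB7A summit lay inside the BCL11A region in 72.2% of cases, and 59.8% of shared BCL11A regions lay wholly inside a ZBTB7A region. Overlap itself bounds these distances, and the BCL11A list gives no summit, so its midpoint stands in for one. The 7044 BCL11A and 8644 ZBTB7A regions formed 9576 overlapping pairs, with 4635 BCL11A regions meeting 1 ZBTB7A region, 2286 meeting 2 and 123 meeting 3 or more.

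Unshared BCL11A regions were seldom neighbours of ZBTB7A outside promoters. The median gap from the 5201 unshared BCL11A regions to the nearest ZBTB7A region was 12997 bp, and 21.7% lay within 1 kb of one. At promoters 33.8% did, in gene bodies 15.7% and at distal sites 14.2%. For the 25938 unshared ZBTB7A regions the median gap to BCL11A was 26437 bp, and 10.9% lay within 1 kb. The same places were then looked up in the ZBTB7A lists of 195C>G cells, ΔGγ cells with a changed γ-globin promoter, and of K562, an erythroleukaemia line.

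BCL11A regions shared in WT cells were the ones more often covered in the other ZBTB7A lists. Of shared BCL11A regions, 64.8% (63.7 to 65.9%) also met a 195C>G region and 42.0% (40.8 to 43.2%) a K562 region, and 2336 met both. Of unshared BCL11A regions, 5.52% (4.91 to 6.17%) met a 195C>G region and 18.0% (16.9 to 19.05%) a K562 region, and 4056 (78.0%) had neither. At unshared promoters K562 covered 27.8% (25.8 to 29.9%), against 11.2% in gene bodies and 14.3% at distal sites. More unshared regions were thus covered in the other cell line than in the sister HUDEP-2 line. Unshared was defined by the WT list, the 195C>G list comes from the same caller, and the K562 list was reduced from 4 libraries, so cell line and processing cannot be told apart here.

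ZBTB7A regions shared with BCL11A also recurred more often in the other lists. They were overlapped in 195C>G in 71.1% of cases (70.1 to 72.0%) and in K562 in 48.5% (47.4 to 49.5%), against 48.6% (48.0 to 49.3%) and 31.7% (31.1 to 32.2%) for unshared ZBTB7A regions. At distal sites the figures were 72.3% and 43.8% for shared and 46.7% and 26.1% for unshared regions. At promoters they were 71.0% and 59.6% against 58.4% and 49.7%. Shared ZBTB7A regions were also the stronger ones, as given above, and the part of strength in this difference was not tested.

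Distance from the gene start was compared at promoters. The midpoint of shared BCL11A promoter regions lay a median 186 bp from the nearest start, with 52.3% within 200 bp, and that of unshared ones 255 bp, with 42.5% within 200 bp. The ZBTB7A summit lay 227 bp from the start in shared and 274 bp in unshared promoter regions, with 45.4% and 38.8% within 200 bp. Midpoints and summits lay more often downstream than upstream of the start, with 39.7% of shared BCL11A and 44.3% of shared ZBTB7A promoter regions upstream.

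The base composition of promoters was read from 20804 RefSeq windows of protein-coding genes (GRCh38.p14), each of 250 bases before to 50 after a start. A window was assigned to a factor when a region touched it. Windows matched 14340 of the 18069 genes of the deposited annotation (79.4%), too few for a statement on all genes, so these shares describe the windows only. Windows touched by both factors (2131) and by BCL11A alone (1016) had a median GC content of 68.7% and 69.3% and a median of 30 and 31 CpG dinucleotides. Those touched by ZBTB7A alone (5027) had 65.3% and 26, and those with neither (12630) had 58.3% and 12. Both factors were thus found at GC-rich starts, and windows with BCL11A were the richer ones.

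TGACCA was found in 9.31% of all windows on either strand. It was found in 12.6% of windows with BCL11A alone (10.6 to 14.8%), as in FZD5 and RILP above, in 9.57% with both factors (8.36 to 10.9%) and in 6.13% with ZBTB7A alone (5.48 to 6.83%). Windows with neither had it in 10.3% (9.74 to 10.8%). The share was 14.2% (10.9 to 18.2%) where the BCL11A region belonged to decile 1 and 7.54% (4.60 to 11.5%) where it belonged to decile 10, and it was 6.82% (5.49 to 8.37%) in ZBTB7A decile 1. The presence of TGACCA in windows with BCL11A alone was therefore above that with ZBTB7A alone. By its interval it was not separated from that with both factors or from that with neither. GC content and CpG number moved with these groups, and their part in the shares was not tested.

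The ETS sequence CCGGAAG was more frequent at occupied promoters of every kind, at 22.99% with both factors (21.2 to 24.8%), 21.9% with BCL11A alone, 19.5% with ZBTB7A alone and 7.61% with neither, against 12.7% of all windows. AGATAA was found in 4.36%, 4.43%, 4.67% and 9.90% of the same groups, against 7.80% of all windows, with the highest share in the windows poorest in GC. The E box CACGTG stood at 10.7%, 9.94%, 11.1% and 6.79%, against 8.40% of all. CCACACCC (known for KLF1) stood at 3.57%, 3.94%, 3.12% and 3.48%, against 3.43% of all, with overlapping intervals. CCGGAAG and CACGTG each hold a CpG dinucleotide, and CpG number and GC content moved with these groups. Their part in these shares was not tested.

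Genes were then classified by the factors at their promoter, with ranks taken from the strongest promoter region of each factor, BCL11A first where a pair is given. They count from the top of lists of 12245 and 34582 regions, so a BCL11A rank and a ZBTB7A rank are not comparable as numbers. Sums of both ranks served only to choose what to name, and their order depends on the lengths of the lists. Of 18069 protein-coding genes, 3444 (19.1%) had a promoter region of both factors, 1008 of BCL11A alone, 4756 of ZBTB7A alone and 8861 of neither. BCL11A was present at 24.6% of genes and ZBTB7A at 45.4%. ZBTB7A was found at 77.4% of the genes with BCL11A, and BCL11A at 42.0% of the genes with ZBTB7A. At 3049 of the 3444 genes with both (88.5%) a promoter region of one factor overlapped one of the other. The overlapping regions need not be the strongest ones, from which the ranks are taken. At the other 395 the positions of the best regions, each counted from the nearest start of the gene, differed by a median 693 bp. Genes can have several starts, so this is not the distance between the regions. With the stronger 50% of each list 1637 genes had both factors.

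Of 27 transcription factor genes of the red cell, 12 had both factors (44.4%, 25.5 to 64.7%), 3 had BCL11A alone, 9 ZBTB7A alone and 3 neither, against 19.1% with both among all genes. In all 15 had BCL11A and 21 had ZBTB7A, against 24.6% and 45.4% of all genes. NFE2, which encodes a subunit of the globin-activating factor NF-E2, had the best sum of ranks of all shared promoters. Its BCL11A region had a score of 1270 (rank 9) and its ZBTB7A region a signal of 152 (rank 250), overlapping by 411 bp, with the midpoint 218 bp and the summit 80 bp upstream of the start. A distal pair 3451 bp from the NFE2 start had ranks 395 and 12. LYL1 had a BCL11A score of 245 (rank 272) and a ZBTB7A signal of 215 (rank 53). GATA1, the master regulator of the lineage, had ranks 997 and 2427.

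Other members had a single factor. GATA2, the progenitor factor that GATA1 replaces, had a BCL11A region at rank 184 (score 315) and no ZBTB7A promoter region, and so had FOXO3, an activator of late erythroid genes, at rank 116 (score 395). TCF3, the partner of TAL1, and LDB1 had ZBTB7A promoter regions (ranks 1536 and 4915) and none of BCL11A. TAL1 itself had both, at ranks 4693 and 3105.

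The globin genes outside chromosome 11 are the α-like genes of chromosome 16. HBM had both factors (BCL11A score 26.6, rank 6807, and ZBTB7A signal 130, rank 440), and so had HBQ1 (16.5, rank 10595, and 109, rank 836) and HBZ (75.5, rank 1852, and 32.8, rank 11910). HBA1 had ZBTB7A alone (signal 24.1, rank 18879) and HBA2 BCL11A alone (score 13.4, rank 12076). HBA1 and HBA2 are near-identical copies, so their reads cannot be assigned with certainty. The embryonic gene HBZ had the strongest BCL11A region of these genes, and HBM and HBQ1 the strongest ZBTB7A regions.

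Known regulators of fetal globin, 27 outside chromosome 11, had both factors in 12 cases (44.4%, 25.5 to 64.7%, against 19.1% of all genes), BCL11A alone in 2, ZBTB7A alone in 11 and neither in 2. In all 14 had BCL11A, against 24.6% of all genes, and 23 had ZBTB7A, against 45.4%. The genes of the factors themselves carried both: the BCL11A promoter had a BCL11A region of rank 3810 and a ZBTB7A region of rank 9406, and the ZBTB7A promoter had ranks 8086 and 646. KLF1, which encodes the erythroid activator of adult globin, had a BCL11A region of rank 4458 (score 38.8) and a ZBTB7A region of rank 150 (signal 173). DNMT1, which encodes the maintenance DNA methyltransferase, had a BCL11A region of rank 567 (score 166) and a ZBTB7A region of rank 4658 (signal 55.1). NFIX had ranks 4745 and 1228. MYB, NFIA and ATF4 had ZBTB7A alone, at ranks 10405, 2232 and 303.

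Both proteins are known to recruit corepressors. Of 24 NuRD and other corepressor genes, 9 had both factors (37.5%, 18.8 to 59.4%, an interval that takes in the 19.1% of all genes), 3 BCL11A alone and 8 ZBTB7A alone. The other 4, MTA1, MTA3, HDAC3 and CTBP1, had neither. All 18069 genes had BCL11A alone in 1008 cases, ZBTB7A alone in 4756 and neither in 8861. GATAD2A, a NuRD subunit gene, had ranks 967 and 1067, and CTBP2, a corepressor gene, had 1031 and 1098. HDAC2, a deacetylase gene, had ZBTB7A alone at rank 344, while CHD4, the remodelling subunit of NuRD, had BCL11A alone at rank 10946.

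Heme synthesis and iron genes had both factors in 13 of 27 cases (48.1%, 28.7 to 68.1%, against 19.1% of all genes), with 6 BCL11A alone, 6 ZBTB7A alone and 2 neither. Among all 18069 genes, 1008 had BCL11A alone, 4756 ZBTB7A alone and 8861 neither. FECH, which encodes the enzyme that inserts iron into heme, had a BCL11A score of 387 (rank 121) and a ZBTB7A signal of 105 (rank 919). TFR2, a transferrin receptor gene, had ranks 1974 and 100, and STEAP3, which encodes a ferric reductase, had 2833 and 2133. ALAD and UROS, which encode enzymes of the pathway, had ZBTB7A alone (ranks 469 and 1320). ABCB6, HMOX2 and BLVRB, which encode a porphyrin transporter and enzymes of heme breakdown, had BCL11A alone (ranks 1555, 2173 and 2028). The other members with BCL11A alone were HMOX1, TMEM14C and TFRC (ranks 3695, 8060 and 10192). The other members with ZBTB7A alone were FTL, BLVRA, HEBP1 and ALAS2 (ranks 2978, 3922, 11782 and 14657).

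Red cell membrane and surface genes had both factors in 15 of 32 cases (46.9%, 29.1 to 65.3%, against 19.1%), with 2 BCL11A alone, 10 ZBTB7A alone and 5 neither. Promoter regions of the 2 factors overlapped in all 15. Beside this, 1008 of all 18069 genes had BCL11A alone, 4756 ZBTB7A alone and 8861 neither. ANK1, which encodes ankyrin of the membrane skeleton, had promoter ranks 1521 and 137 and in its gene body the pair with the best sum of ranks of its class (ranks 42 and 3, score 650 and signal 322). ACKR1, the Duffy blood group gene, had 2692 and 408, and ABCG2, a transporter gene, had 2552 and 1675. ADD1, which encodes adducin, had BCL11A alone at rank 304.

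Erythropoietin and KIT signalling genes had both in 9 of 22 cases (40.9%, 20.7 to 63.6%, against 19.1%), with 2 BCL11A alone, 6 ZBTB7A alone and 5 neither. The counts over all 18069 genes were 1008 BCL11A alone, 4756 ZBTB7A alone and 8861 neither. EPOR had a BCL11A region of rank 20 (score 951) and a ZBTB7A region of rank 7207 (signal 44.0), and LYN, a kinase gene, had ranks 300 and 10104. SOCS1 and SOCS2, inhibitors of the pathway, had BCL11A ranks 2743 and 3613 and ZBTB7A ranks 284 and 2083. BCL2L1, the survival gene that erythropoietin induces, had ZBTB7A alone at rank 335.

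Cell cycle and survival genes had both in 9 of 27 cases (33.3%, 16.5 to 54.0%, an interval that takes in 19.1%) and ZBTB7A alone in 14. MDM2, the inhibitor of p53, had ranks 2772 and 412, CDKN1B, which encodes a cell cycle inhibitor, had 4900 and 2969, and CCND3, the cyclin of erythroid divisions, had 6141 and 2066. Splicing factor genes had both in 14 of 33 cases (42.4%, 25.5 to 60.8%, against 19.1%), ZBTB7A alone in 11 and BCL11A alone in 0. HNRNPR had ranks 366 and 168 and HNRNPD 1554 and 3297, while U2AF2 had 215 and 692 in regions that did not overlap.

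Ribosomal protein genes had both in 16 of 50 cases (32.0%, 19.5 to 46.7%), with 2 BCL11A alone, 16 ZBTB7A alone and 16 neither. Mitochondrial ribosomal protein genes had both in 13 of 43 cases (30.2%, 17.2 to 46.1%), with 5 BCL11A alone, 16 ZBTB7A alone and 9 neither. For all genes the share with both was 19.1%, inside the second interval and just below the first. Among all 18069 genes, 1008 had BCL11A alone, 4756 ZBTB7A alone and 8861 neither. RPL13A had a BCL11A region of rank 90 (score 444) and a ZBTB7A region of rank 5020 (signal 53.0), and RPL26 had ranks 964 and 1180. MRPL40 had 340 and 3602, MRPS26 had 2105 and 3171, and MRPL34 had 662 and 6802. Glycolysis genes had both in 3 of 18 cases (16.7%, 3.58 to 41.4%, near the 19.1% of all genes), HK1, ALDOA and PFKM, with 2 BCL11A alone, 7 ZBTB7A alone and 6 neither.

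Markers of other lineages were counted in the same way, against 19.1% of all genes with both factors, 24.6% with BCL11A and 45.4% with ZBTB7A. Myeloid markers had both factors in 0 of 16 cases (up to 20.6%), lymphoid markers in 0 of 13 (up to 24.7%), and hepatocyte and neuron markers in 1 of 17 (0.149 to 28.7%), the synapse gene DLG4. Both regions of DLG4 (ranks 3807 and 7565) were also promoter regions of ACADVL, so they cannot be assigned to DLG4 alone. Megakaryocyte markers had both in 2 of 16 (1.55 to 38.3%). Each interval takes in 19.1%, so none of these lists was separated from all genes by its count of both. BCL11A was present at 1 myeloid, 0 lymphoid, 1 hepatocyte and neuron and 4 megakaryocyte markers, and ZBTB7A at 2, 5, 2 and 3. GP1BB, a platelet receptor subunit gene, had one of the strongest BCL11A promoter regions (rank 14, score 1093) and a ZBTB7A region of rank 11769 (signal 33.0), and ITGB3 had 6732 and 32420. TUBB1, the platelet tubulin gene, had BCL11A alone at rank 365. For each list the other genes were not matched for activity or for open chromatin, and the part of these in the counts was not tested.

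The promoters with the best sum of ranks after NFE2 were those of KMT2B, a histone methyltransferase gene (BCL11A score 399, rank 113, ZBTB7A signal 163, rank 184), and LYL1. At KMT2B the regions overlapped by 115 bp, with the midpoint and summit 460 bp apart. DNAJB2, a chaperone gene, followed with ranks 112 and 256 and a distance of 29 bp. CEP57L1 and SESN1 share a region pair at ranks 292 and 131. CA1, the carbonic anhydrase gene of red cells, had 33 and 482, and PNMT, which encodes an enzyme of adrenaline synthesis, had 43 and 555. HNRNPR and ZNF787 completed the list, the latter at ranks 353 and 210.

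BCL11A promoter regions without ZBTB7A included some of the strongest. KLHDC8B stood at rank 22 (score 914), with the nearest ZBTB7A region 66044 bp away, and the K562 list covered it. AMD1, which encodes an enzyme of polyamine synthesis, stood at rank 57 and had a ZBTB7A region at another start, FZD5 stood at 157 (score 347, nearest ZBTB7A 57100 bp away) and RILP at 170 (score 329, 85013 bp). The region of SEMA4B at rank 65 missed a ZBTB7A region by 74 bp and was covered in 195C>G. Like AMD1, the gene SEMA4B also had a ZBTB7A promoter region. PGP, ASB6, ZNF57, FOXO3 and NDUFAF6 were the others, at ranks 98 to 166. Of the 10 regions, 1 was covered in 195C>G and 6 in K562, against 5.91% and 27.8% of all unshared BCL11A promoter regions.

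ZBTB7A promoter regions without BCL11A were led by PELP1 (signal 306, rank 4) and ZSCAN31 (signal 284, rank 11), followed by ASPSCR1, RNF14 and ASB1 at ranks 18 to 30. DEDD2 and ZNF526 share the region of rank 60. SLC12A4, which encodes a potassium-chloride cotransporter of red cells, stood at rank 66 with a BCL11A region 61 bp away. HIST1H2AM and POLG, the gene of the mitochondrial DNA polymerase, stood at ranks 78 and 82. ZSCAN31, DEDD2, SLC12A4 and HIST1H2AM also had a BCL11A promoter region, which did not overlap the ZBTB7A region named here. Every one of the named ZBTB7A regions was also covered in 195C>G and in K562, against 36.6% of all unshared ZBTB7A promoter regions. The named regions were chosen as the strongest of the WT list.

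Outside promoters the shared pairs with the best ranks lay in ANK1, ZFPM1, REXO1, TESC, BSG, MYL4, ARID3A and NFIX. The BSG pair, in the basigin gene of the Ok blood group, had ranks 51 and 171, and the NFIX pair 160 and 114. Distal pairs lay nearest to the starts of ODF1, TONSL, ISOC2, TPSAB1, LCTL, MYC, SHISA7 and NFE2. The one assigned to MYC lay 308982 bp from its start (BCL11A score 977, rank 19, ZBTB7A signal 142, rank 330). The nearest start is a position only and does not name the regulated gene.

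Strong regions of a single factor outside promoters were named as well. Of the strongest BCL11A regions without ZBTB7A, those inside a gene lay in CTIF (score 1099), SH3PXD2A (803) and FAM60A (796). The distal ones were named by the nearest start. They lay 229197 bp from GSE1 (score 1473, rank 6, nearest ZBTB7A region 1375 bp away) and 51177 bp from DNAJB8 (1092). All 5 were covered by a K562 ZBTB7A region and none by a 195C>G region. Of all unshared BCL11A regions, K562 covered 11.2% in gene bodies and 14.3% at distal sites, and 195C>G covered 5.04% and 5.63%. Of the strongest ZBTB7A regions without BCL11A, the one inside a gene lay in YPEL5 (signal 279). The others lay 97654 bp from the MYLIP start, 67402 bp from SPOPL (298), 157479 bp from RYBP (247) and 9502 bp from RHAG (246). All 5 were covered in both 195C>G and K562, against 13.6% of all unshared ZBTB7A regions in gene bodies and 18.6% at distal sites. RHAG, the gene of the Rh-associated glycoprotein, lay 9502 bp from its region and had a separate ZBTB7A promoter region (rank 19566).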

How the data were processed

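ChIP-seq region lists were analysed for BCL11A (2 ChIP and 2 control libraries) and ZBTB7A in WT cells (1 and 1). Reads were handled with Trimmomatic 0.3.2, Bowtie2 2.2.9, Bowtie, Picard and bedtools on GRCh38/hg38, per the submitters' processing notes. The authors deposited a score per BCL11A region, whose formula was not stated, and a signal, a −log10 q-value and a summit per ZBTB7A region, called with SPP by its file's name. Both are relative within their list. The q-value is identical for the strongest regions and was not used for ranks. The lists hold no read counts, so no precision beyond counting error can be given.

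Regions on chromosome 11 and off the standard chromosomes were left out, identical intervals (91 BCL11A, 416 ZBTB7A) were counted once, and overlapping intervals were kept apart, so counts are not of separate sites (11329 and 27417 after merging). Classes used protein-coding (NM) starts of the deposited annotation, which off chromosome 11 has hg38 positions. Coordinates are 1-based. Analyses used Python 3.11.15, pandas 2.3.3 and SciPy 1.17.1, and the overlap code was tested on simulated data. The main alternatives were reciprocal overlap, midpoints or summits, stronger or equal lists, merged regions, fixed widths, other promoter windows and the 195C>G list.

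The compared regions, the classes and the 16 gene lists were chosen with earlier results of these data known. The lists held 415 genes, 13 of them in more than 1 list. Of the 415 genes, 30 on chromosome 11 were left out and 385 matched. Genes were named by rule, first those of the 10 best sums of ranks at shared promoters. Next came the 10 genes of the strongest promoter regions of each factor that the other did not overlap. Further rules gave the 8 best pairs in gene bodies, the 8 at distal sites and the 3 best members with both factors in each gene list. The last rule took the 5 strongest regions of each factor outside promoters that the other did not overlap. Members of the gene lists with a single factor or neither, LYN, TAL1, the factor genes themselves and the 10 strongest regions of each list were named after their values were seen. A named gene of the ribosomal protein list is not reported here.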

Additional observations from a re-analysis of the deposited data

How the results depend on the processing

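The share of BCL11A regions overlapped by ZBTB7A (57.5%) was 33.5% with reciprocal overlap of at least 50%, 50.8% with a midpoint or summit inside the other region, 47.9% with the stronger 50% of each list, 34.5% with lists of equal length, 55.8% without chromosome 19, 39.6% with the 195C>G list and 39.7% with only those WT regions that 195C>G also has. It was 57.4% with overlapping regions merged. The share of ZBTB7A regions (25.0%) was 13.0, 15.8, 19.8 and 36.3% in the first 4 settings, 23.2% merged, 24.6% without chromosome 19 and 29.3% with 195C>G.

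Decile 1 minus decile 10 was 22.8 points for BCL11A and 5.197 with reciprocal overlap, and it was 9.70, 29.6 and 31.3 within promoters, gene bodies and distal sites. For ZBTB7A it was 32.6, with 21.8 under reciprocal overlap, 21.8 within promoters and 36.7 within gene bodies. Promoter minus distal was 10.5 points for BCL11A, 13.0 and 5.97 with promoter windows of 0.5 and 5 kb, 3.19 with 195C>G and reversed to -0.605 with reciprocal overlap. For ZBTB7A it was 13.8, with 15.4 and 10.6 for those windows, 3.96 with reciprocal overlap and 12.3 with fixed widths. Genes with both factors numbered 3444, and 1637 with the stronger 50% of each list, 2725 and 4214 with windows of 0.5 and 5 kb, 3049 with overlapping regions and 2540 with 195C>G. Reciprocal overlap excludes by construction BCL11A regions narrower than 50% of their partner. For the other changes the cause was not tested.

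The 195C>G list for deciles, classes and genes, and the WT regions also in 195C>G, were added after the data were seen. No paired analysis was possible because the lists are pooled over replicates or come from 1 library and hold no value per replicate. Leaving out a replicate was not run for the same reason. Depth is unknown, and the lists differ in library number and caller, which cannot be told apart from the factor.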

Other observations

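Sharing also differed between chromosomes. BCL11A regions were overlapped by ZBTB7A in 73.7% of 1201 regions on chromosome 19 (71.1 to 76.2%), 67.1% of 553 on chromosome 12 (63.0 to 71.0%), 65.8% of 766 on chromosome 17 and 65.8% of 433 on chromosome 22. The lowest autosomal share was 41.4% of 191 regions on chromosome 21 (34.3 to 48.7%), and the share on the X chromosome was 31.4% of 169 (24.5 to 38.9%). For ZBTB7A the share was 29.9% of 1178 regions on chromosome 22 (27.3 to 32.6%), 27.7% of 3988 on chromosome 19 and 11.96% of 535 on the X chromosome (9.34 to 15.0%), while promoters made up 42.1% of the ZBTB7A regions there. The intervals cover counting error only.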
